A study of Mus musculus with 4 samples.

Results

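Homing and niche retention receptors are described here: the chemokine receptors Cxcr4, Ccr9 and Ccr2, the sphingosine 1-phosphate receptor S1pr1, the selectin ligand Selplg (PSGL-1), the integrin chains Itga4 and Itgb1, the hyaluronan receptor Cd44 and the prostaglandin E2 receptor Ptger4. These 9 genes were chosen by symbol among the 32285 genes of the deposited matrix, and all were detected. The cells were donor hematopoietic stem and progenitor cells (HSPCs), recognised by CD45.2, from the bone marrow of C57BL/6 animals. They were taken 20 weeks after a competitive transplantation, in which the test cells share 1 recipient with competitor cells. The labels name 4 samples, 2 WT and 2 with a Srcap heterozygous mutation, and Srcap is the ATPase of a remodelling complex that exchanges H2A for H2A.Z in chromatin. The labels do not give the change in the Srcap allele or the conditioning, sex or age of the recipients. Of each sample, 20000 cells entered 10x Genomics 3' capture.

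Facts of the files bear on every value. The barcodes end in a suffix from 1 to 4, here called libraries 1 to 4, and no label ties a suffix to a sample, so mutant and WT are not compared and each library is given on its own. The 41122 cells kept numbered 9026 to 12418 per library, with a median of 9824 to 10226 transcript molecules (UMIs) per cell, and 178 barcode sequences occurred in more than 1 library. Cells were put into 16 types by gates on detected marker genes, none of them a member, and 48.3% of the kept cells fell into a gate. A gate is a cut through a continuum: 2951 of the 4729 stem-gated cells had exactly the markers required, and 5467 ungated cells were 1 marker short of that gate.

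Markers held out of the gates were checked in each. For the stem gate, 3 of 4 (Gda, Mycn and Tgm2) were highest there, and for the erythroid gate 4 of 4. The fractions were 2 of 4 for megakaryocyte cells and 1 of 3 each for early granulocyte, monocyte and plasmacytoid dendritic cells. None of the 4 lymphoid markers was highest in the lymphoid-primed or common lymphoid gate. Of these, Blnk was higher at each step, from a median of 0.694 CPM (UMIs of the gene, scaled so that every gate and library has the same total) in stem cells to 3.79 in lymphoid-primed and 40.2 in common lymphoid cells, and Ltb did not, at 162, 79.8 and 29.0 CPM. Gate names stand for marker patterns only. Of the 659 monocyte-gated cells, 541 also met the early granulocyte gate.

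These receptors help set where a blood cell stays. Cxcr4 binds Cxcl12 from marrow stroma and holds cells in the niche, the α4β1 integrin made of Itga4 and Itgb1 binds Vcam1 and fibronectin, Cd44 binds hyaluronan, and Selplg binds selectins when cells roll on the vessel wall. S1pr1 senses the sphingosine 1-phosphate of blood and lymph and drives exit from tissues. Ccr9 and its ligand Ccl25 bring progenitors to the thymus and lymphocytes to the gut, Ccr2 lets monocytes leave the marrow toward Ccl2, and Ptger4 is the cAMP-raising prostaglandin E2 receptor known to act on stem cells.

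Upstream sequence is shown for 4 members, picked with their values known: Cxcr4 and Ptger4, which moved with cycling in opposite directions in stem cells, Ccr9, which was near 0 in stem cells, and Itgb1, which differed little between resting and cycling stem cells. They are from RefSeq (GRCm38.p6), the bases before the start that RefSeq gives, 5′ to 3′ on the gene's strand, with CG dinucleotides in capitals. The Cxcr4 window is chr1:128592300-128592549 on the minus strand, that of Ccr9 chr9:123766961-123767168 on the plus strand, that of Itgb1 chr8:128685404-128685653 on the plus strand and that of Ptger4 chr15:5244188-5244437 on the minus strand. The RefSeq start of Ccr9 lies inside the longer gene span of the GENCODE annotation that gives the gene positions further on.
Cxcr4: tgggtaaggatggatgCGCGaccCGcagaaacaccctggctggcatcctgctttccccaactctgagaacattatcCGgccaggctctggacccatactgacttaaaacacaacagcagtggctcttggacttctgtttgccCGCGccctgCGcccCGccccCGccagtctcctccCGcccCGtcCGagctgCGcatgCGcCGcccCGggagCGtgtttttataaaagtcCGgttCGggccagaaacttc
Ccr9: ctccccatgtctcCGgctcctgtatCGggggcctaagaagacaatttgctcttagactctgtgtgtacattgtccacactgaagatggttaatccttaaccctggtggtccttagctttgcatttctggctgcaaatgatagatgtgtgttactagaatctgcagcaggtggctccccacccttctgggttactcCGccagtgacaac
Itgb1: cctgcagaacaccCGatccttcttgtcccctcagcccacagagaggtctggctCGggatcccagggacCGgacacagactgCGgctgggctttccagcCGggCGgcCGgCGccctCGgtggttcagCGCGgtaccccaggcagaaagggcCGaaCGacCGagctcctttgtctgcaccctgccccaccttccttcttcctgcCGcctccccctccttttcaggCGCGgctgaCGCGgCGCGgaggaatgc
Ptger4: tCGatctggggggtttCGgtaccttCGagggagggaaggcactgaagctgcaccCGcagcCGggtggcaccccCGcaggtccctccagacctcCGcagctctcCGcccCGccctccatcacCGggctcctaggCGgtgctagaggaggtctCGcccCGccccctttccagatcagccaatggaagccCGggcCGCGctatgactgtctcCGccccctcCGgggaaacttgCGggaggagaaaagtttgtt

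Of the 9 members, 7 had a RefSeq entry (S1pr1 and Selplg had none). Windows of 250 bases held 21 CG in Itgb1, 19 in Cxcr4, 19 in Ptger4, 6 in Itga4, 5 in Cd44, 3 in Ccr9 and 1 in Ccr2. Among all entries, 19.7% had at least the 19 CG of Cxcr4 and Ptger4, and 92.1% had at least the 1 of Ccr2. The printed Ccr9 stretch is 208 bases because the rest of its window lies in annotated exon, as does most of the Ccr2 window. The E-box CAGGTG, searched on both strands, occurred in Ccr9 alone of the 7, with its first base 85 bases before the start, and in 17.2% of all entries. These counts describe the letters and were not related to the levels by a test.

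Levels are given as CPM of the UMIs summed over the cells of a gate in 1 library, so a level does not tell a gene used weakly by all cells from one used strongly by a few. A member was called higher or lower between gates when the ratio of CPM + 1 reached 1.5-fold, in 1 direction, in all 4 libraries and the gene averaged at least 5 CPM over both sides. This is a rule of size. No p-value was computed, since the libraries cannot be taken as replicates while their genotype is unknown. Gene positions are those of the GENCODE annotation of GRCm38, the mm10 assembly, joined by gene ID. The shares of all genes passing the same rule are given beside the counts.

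**Figure D1:**
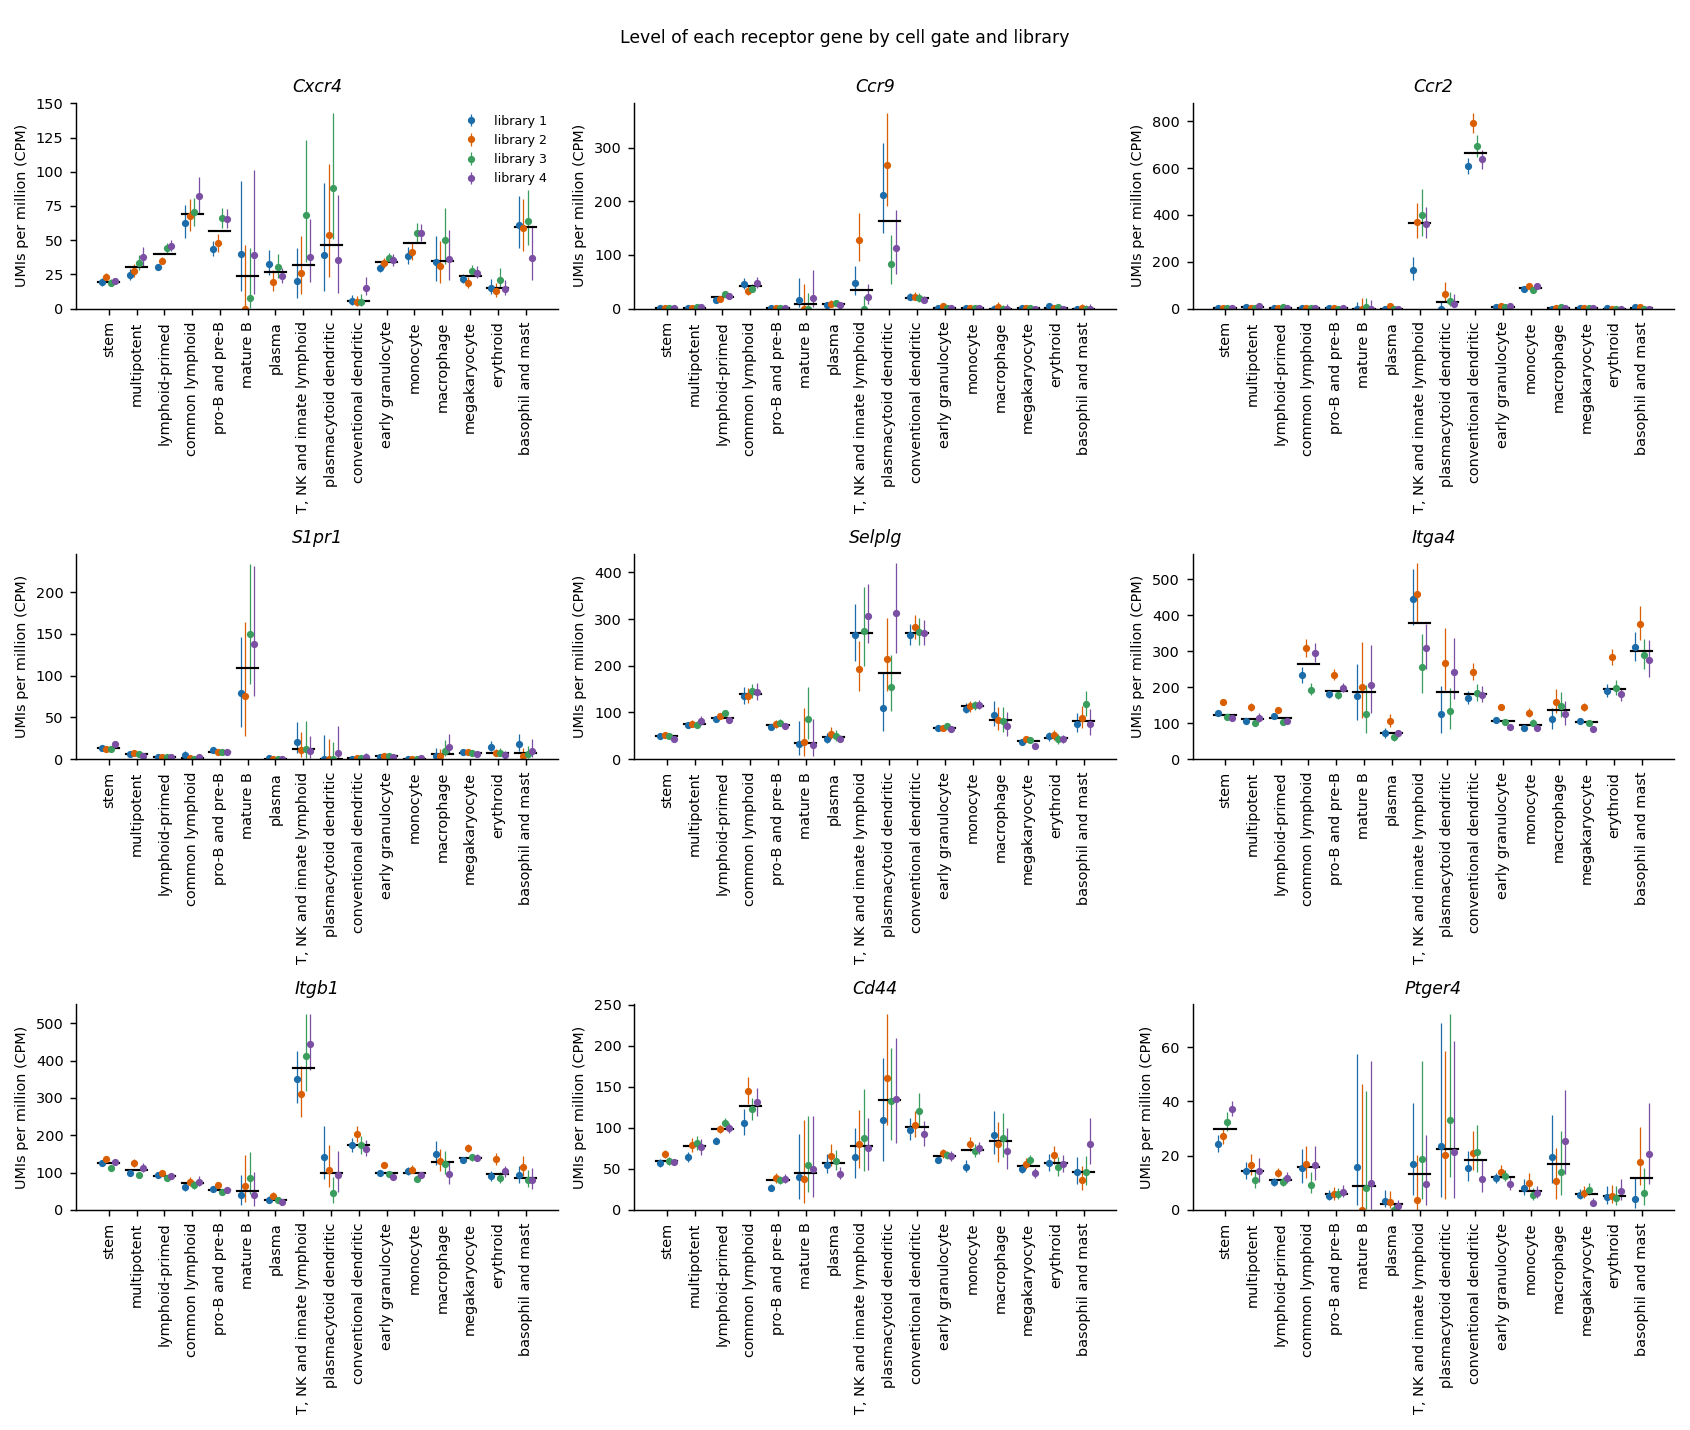
Level of each member (CPM of summed UMIs, vertical axes) in the 16 marker-gated cell types (horizontal axes). Points are the 4 libraries, bars are exact Poisson 95% intervals that cover counting error only, and the black line is the median over libraries. Ccr2 stands highest in conventional dendritic cells, Ptger4 in stem cells and Cxcr4 in common lymphoid cells.

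Cxcr4 (ENSMUSG00000045382, chr1:128588199-128592293, minus strand) was lowest of the early compartments in stem cells and was higher along the lymphoid path. Stem-gated cells had 19.4, 23.2, 18.7 and 19.8 CPM in libraries 1 to 4. Multipotent cells had 24.6, 27.5, 33.5 and 37.7 CPM, and lymphoid-primed cells 30.2, 35.0, 44.0 and 45.8 CPM. Common lymphoid cells had 62.7, 67.6, 70.2 and 81.9 CPM, above every stem, multipotent and lymphoid-primed value. The stem values lay below all the others of this path, while multipotent and lymphoid-primed cells overlapped. The common lymphoid gate was called higher than the lymphoid-primed gate, at a median log2 ratio of 0.88 (range 0.66 to 1.03). The call was lost with 1 more marker per gate (0.99), in resting cells alone (1.29) and with cells classed by Leiden clustering (0.07). Against stem cells, lymphoid-primed cells differed by a median of 0.89 (0.57 to 1.19), with library 2 short of the fold required. The rise was not particular to the lymphoid path. Early granulocyte (29.5 to 37 CPM), monocyte (38.5 to 55.4 CPM) and basophil and mast cells (36.8 to 64.1 CPM) also lay above every stem value. Early granulocyte against stem cells had a log2 ratio of 0.70 (0.50 to 0.95), not called. The megakaryocyte values of 18.7 to 27.7 CPM and the erythroid values of 12.6 to 21.2 CPM overlapped those of stem cells. Conventional dendritic cells were lowest of the 16 gates, at a median of 5.28 CPM. All 15 pairs of neighbours in the order of gates had overlapping ranges, so the order is resolved only across wider steps.

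Ccr9 (ENSMUSG00000029530, chr9:123678439-123784330, plus strand) was near 0 in stem cells and higher in lymphoid-primed cells. Stem-gated cells had 0.208, 0.608, 1.40 and 0.979 CPM, and lymphoid-primed cells 15.5, 18.4, 26.7 and 23.0 CPM, without overlap. The median log2 ratio was 3.60 (3.53 to 3.77), a call in the higher direction. Multipotent cells had 0.231 to 3.62 CPM, overlapping stem cells, and resting multipotent cells a median of 5.96 CPM (0 to 16.8) on 23 UMIs. Common lymphoid cells had 45.6, 32.6, 37.0 and 47.3 CPM, also above every lymphoid-primed value. Library 3 differed by a log2 ratio of 0.45, short of a call, beside a median of 0.90. Plasmacytoid dendritic cells, the interferon-producing lineage, had the highest median. Their values of 212, 268, 82.8 and 113 CPM rest on 27, 40, 15 and 16 UMIs, and the 95% Poisson interval in library 3 runs from 46.4 to 137 CPM. T, NK and innate lymphoid cells ranged from 0 CPM in library 3, where a count of 0 allows up to 18.7 CPM, to 128 CPM in library 2. By pro-B and pre-B cells Ccr9 was back at 0.481 to 1.19 CPM.

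Read as cells, 10% of the lymphoid-primed gate had a Ccr9 UMI, against 0.486% of the stem gate. After every cell was thinned to 5000 UMIs the medians over libraries were 7.18% (5.77% to 9.95%) and 0.333% (0.108% to 0.487%). Stem, megakaryocyte and pro-B cells had a Ccr9 UMI in 0.333%, 0.224% and 0.146% of thinned cells. The part of free RNA in these shares was not tested. Conventional dendritic cells reached 9.01%. The median depth before thinning was 8599 UMIs in the stem gate and 11775 in the lymphoid-primed gate. The Ccr9 gene overlaps Lztfl1 on the opposite strand, which held 18741 UMIs in the matrix. Whether the counting used strand is not given in the sources used here.

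Ccr2 (ENSMUSG00000049103, chr9:124101950-124113557, plus strand) was highest in dendritic cells and separated monocyte from early granulocyte cells. Conventional dendritic cells had 609, 792, 693 and 637 CPM, above every value of the other 15 gates. T, NK and innate lymphoid cells had 165, 370, 400 and 363 CPM. Monocyte-gated cells had 83.4, 95.6, 80.3 and 94.5 CPM, and early granulocyte cells 7.78, 12.5, 6.13 and 8.85 CPM. Those groups lay far apart, at a median log2 ratio of 3.27 (2.84 to 3.51), called higher in monocyte cells. With the cells that pass both gates left out, a choice made after the data were seen, the ratio was 1.67 and still called. In stem cells Ccr2 was at 1.12 to 1.98 CPM. The early granulocyte gate was called higher than the stem gate, at 1.85 (1.56 to 2.61). That call was lost without library 2 (1.75), where Ccr2 fell under 5 CPM, and in resting cells (0.62). It was also lost without the highest 8% of doublet scores (2.23) and with a filter of 20 CPM (1.85). Resting early granulocyte cells numbered 116 and held 10 Ccr2 UMIs. After thinning, 89.3% of conventional dendritic cells, 28.8% of monocyte cells, 2.82% of early granulocyte cells and 0.308% of stem cells had a Ccr2 UMI.

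S1pr1 (ENSMUSG00000045092, chr3:115710433-115715072, minus strand) ran the other way from Cxcr4 and Ccr9 along the lymphoid path. Stem-gated cells had 13.8, 12.6, 12 and 18.6 CPM. Multipotent cells had 5.89, 7.62, 6.61 and 4.18 CPM, and lymphoid-primed cells 2.16, 2.95, 2.47 and 2.21 CPM. The ranges of these 3 gates did not overlap. The lymphoid-primed gate was called lower than the stem gate, at a median log2 ratio of -2.07 (-2.61 to -1.78), and the early granulocyte gate at -1.71 (-2.66 to -1.45). In resting cells alone the first was -1.90, still called, and the second -1.06, no longer called. For the second, the 116 resting early granulocyte cells held 11 S1pr1 UMIs. Megakaryocyte (-0.68) and erythroid (-0.66) cells were not called. Common lymphoid cells, at 4.73, 1.46, 0.747 and 2.20 CPM, overlapped lymphoid-primed cells. Mature B cells, which use S1pr1 to leave tissues, had the highest level of all gates, at 79.6, 75.3, 150 and 138 CPM on 10, 6, 19 and 14 UMIs. Pro-B and pre-B cells had 8.50 to 11 CPM. Among these, cells with 3 or 4 of the 6 gate markers reached 26.1 to 44.0 CPM and cells with all 6 were at 4.86 to 10.7 CPM. The share of resting cells was 43.6% in the first of these and 1.65% in the second, and its part in the difference was not tested.

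Selplg (ENSMUSG00000048163, chr5:113818536-113832644, minus strand) was higher at each step of the same path, with little spread between libraries. Stem-gated cells had 50.6, 50.9, 50.2 and 42.3 CPM, lymphoid-primed cells 86.0, 91.5, 98.4 and 84.5 CPM, and common lymphoid cells 136, 135, 145 and 144 CPM. The 3 groups did not overlap. Lymphoid-primed cells were called higher than stem cells, at a median log2 ratio of 0.90 (0.75 to 0.98). The step to common lymphoid cells, 0.60 (0.56 to 0.76), fell just short in 2 libraries. Monocyte cells, at 108 to 117 CPM, were called higher than early granulocyte cells, at 63.8 to 71.4 CPM (log2 ratio 0.73, 0.68 to 0.87). Conventional dendritic cells stood at 266 to 282 CPM and megakaryocyte cells at 29.1 to 43.8 CPM.

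The α4β1 chains did not move together. Itga4 (ENSMUSG00000027009, chr2:79255426-79333123, plus strand) was level from stem cells (128, 159, 118 and 114 CPM) to lymphoid-primed cells (120, 138, 103 and 107 CPM), and these values overlapped. Common lymphoid cells, at 233, 309, 193 and 296 CPM, were called higher than lymphoid-primed cells (1.05, 0.90 to 1.46). Itgb1 (ENSMUSG00000025809, chr8:128685654-128733200, plus strand) was lower at each step over the same cells, without a call. It had 125, 136, 113 and 127 CPM in stem cells, 92.6, 100, 84.7 and 89.7 CPM in lymphoid-primed cells, and 60.9, 75.4, 66.4 and 75.8 CPM in common lymphoid cells. Its log2 ratio was -0.43 (-0.49 to -0.41) at the first step and -0.38 (-0.60 to -0.24) at the second, below 0 in all 4 libraries. Plasma cells were lowest in both chains, at 62.0 to 107 CPM of Itga4 and 20.2 to 36.8 CPM of Itgb1. T, NK and innate lymphoid cells were highest, at 256 to 458 and 311 to 445 CPM. Erythroid cells had 190, 283, 198 and 180 CPM of Itga4, all above the stem value of the same library, at a log2 ratio of 0.70 (0.56 to 0.83) that was not called because of library 1. Itga4 overlaps Cerkl on the opposite strand, which held 2641 UMIs.

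Cd44 (ENSMUSG00000005087, chr2:102811141-102901665, minus strand) was lower in stem than in lymphoid-primed and common lymphoid cells, and lower still in pro-B and pre-B cells. Stem-gated cells had 57.3, 68.2, 59.7 and 58.8 CPM, lymphoid-primed cells 84.4, 98.1, 106 and 99.7 CPM, and common lymphoid cells 106, 145, 123 and 131 CPM. The stem values were below those of both other gates, which touched at 106 CPM, and overlapped the multipotent values of 64.3 to 81 CPM. The log2 ratio of lymphoid-primed to stem cells was 0.65 (0.52 to 0.82), short of a call in libraries 1 and 2. Pro-B and pre-B cells had the lowest median of the 16 gates, with 26.9, 38.7, 36.2 and 37.6 CPM.

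Ptger4 (ENSMUSG00000039942, chr15:5206661-5244187, minus strand) had its highest median in stem cells. They held 24.4, 27.1, 32.4 and 37.3 CPM, against 14.2, 16.4, 10.9 and 14.2 CPM in multipotent cells and 10.1, 13.7, 10.2 and 11.9 CPM in lymphoid-primed cells. Every stem value exceeded every value of the multipotent, lymphoid-primed, early granulocyte, megakaryocyte and erythroid gates, and the stem values overlapped those of plasmacytoid dendritic (20.1 to 33.1 CPM) and macrophage cells (10.5 to 25.4 CPM). The gene was called lower than in stem cells in lymphoid-primed (log2 ratio -1.38, -1.58 to -0.93), early granulocyte (-1.15, -1.87 to -0.90), megakaryocyte (-1.97, -3.45 to -1.93) and erythroid cells (-2.24, -2.67 to -2.15). In resting cells alone the same ratios were -1.59, -1.49, -2.02 and -2.41, all called. Ptger4 overlaps Ttc33 on the opposite strand, which held 15580 UMIs.

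**Figure D2:**
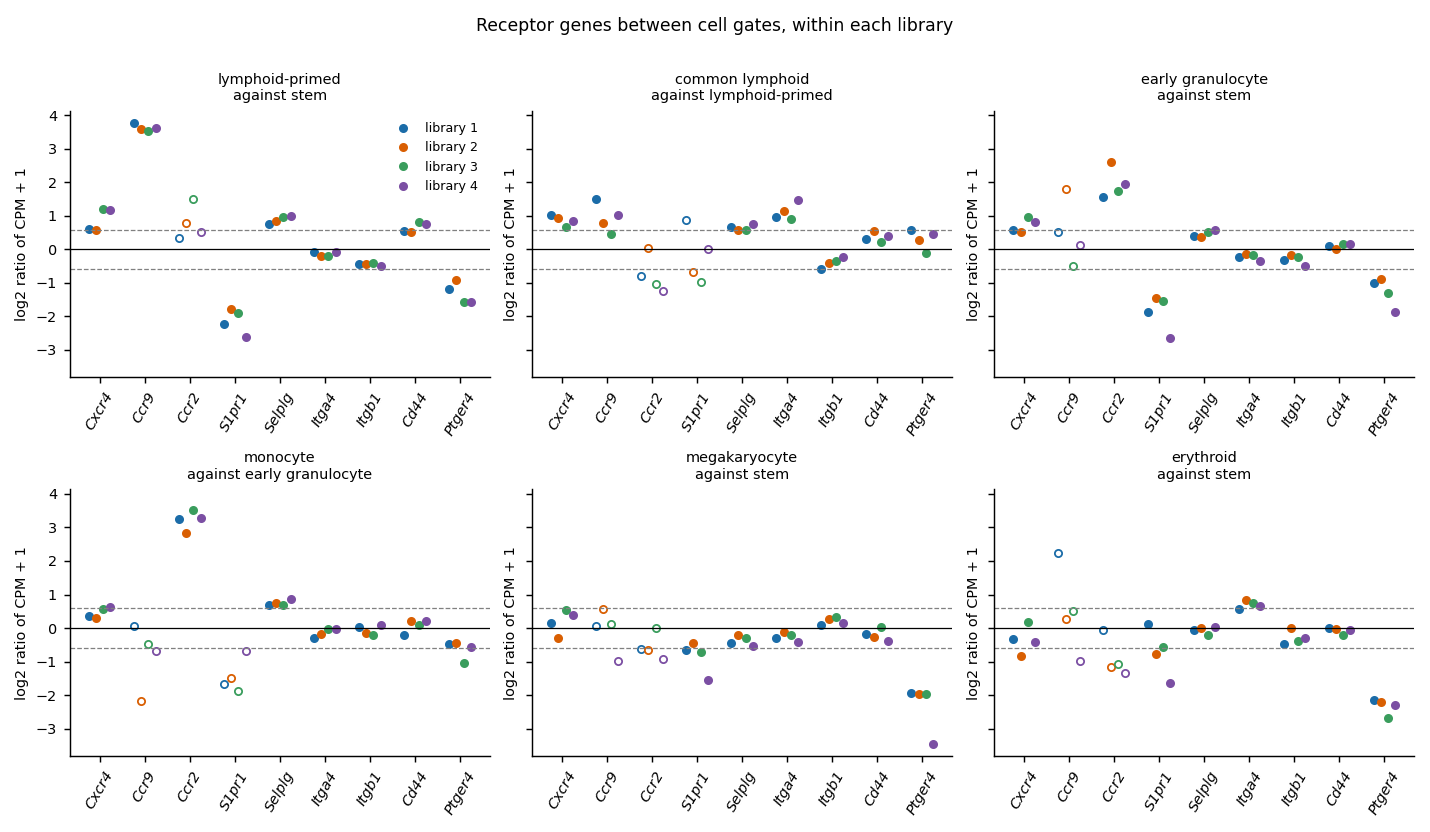
Log2 ratio of CPM + 1 (vertical axes) of each member (horizontal axes) in 6 contrasts between gates, 1 point per library. Dashed lines mark 1.5-fold and open points are members under 5 CPM averaged over both sides. The 4 Ptger4 points lie below the lower dashed line in the contrasts of lymphoid-primed, early granulocyte, megakaryocyte and erythroid cells with stem cells.

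Counted over the members, 2 of 8 tested (Ccr9 and Selplg) were higher and 2 (S1pr1 and Ptger4) lower in lymphoid-primed than in stem cells. Of all 9906 genes tested there, 3.16% were higher and 9.17% lower. In common lymphoid against lymphoid-primed cells 2 of 7 (Cxcr4 and Itga4) were higher and 0 lower, beside 2.15% and 2.32% of all genes. In early granulocyte against stem cells 1 of 8 (Ccr2) was higher and 2 (S1pr1 and Ptger4) lower, beside 6.22% and 16.6%. In monocyte against early granulocyte cells 2 of 7 (Ccr2 and Selplg) were higher and 0 lower, beside 1.71% and 3.58%. In megakaryocyte against stem cells 0 of 7 were higher and 1 (Ptger4) lower, beside 4.2% and 9.98%, and in erythroid against stem cells 0 of 7 higher and 1 (Ptger4) lower, beside 7.58% and 18.9%. Contrasts with stem cells share the stem values and are not independent of each other. Counts of 1 or 2 among 7 or 8 members are too small to be set apart from these shares.

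Cycling was described next, because the gates differ in it. Cells with under 2 UMIs of 10 S and G2/M phase genes per 10000 were taken as resting and those with at least 10 as cycling. By this cut 59.3% of stem cells were resting and 17.4% cycling, against 25.1% and 43.3% of lymphoid-primed cells. Cycling cells were deeper, at a median of 16451 against 7781 UMIs in the stem gate and 16305 against 7618 in the lymphoid-primed gate. Shares of cells are therefore given after thinning to 5000 UMIs.

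Cxcr4 was higher in cycling cells of both gates. Resting stem cells had 8.71, 16.2, 12.4 and 12.6 CPM and cycling ones 35.9, 33.3, 36.8 and 38.7 CPM. There was no overlap, and the median log2 ratio of 1.52 (0.99 to 1.93) was a call. In lymphoid-primed cells the values were 15.9, 18.5, 27.2 and 32.2 CPM at rest and 36.6, 42.4, 56.2 and 51.9 CPM in cycle (1.09, 0.67 to 1.15, called). Thinned stem cells had a Cxcr4 UMI in 5.97% at rest (3.93% to 7.93%) and 17.4% in cycle (17.3% to 18.2%). In common lymphoid cells the resting values of 45.7, 62.1, 60.4 and 36.8 CPM lay below the cycling values of 76.8, 71.6, 81.0 and 105 CPM.

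Ptger4 went the other way in stem cells. Resting stem cells had 34.4, 40.5, 41.8 and 46.7 CPM and cycling ones 12.6, 15.1, 15.2 and 19.0 CPM. The log2 ratio of -1.37 (-1.40 to -1.25) was nearly the same in every library and was called. Thinned, 16.4% of resting and 7.65% of cycling stem cells had a Ptger4 UMI. In lymphoid-primed cells the ratio was -0.12 (-0.40 to -0.04), not called. S1pr1 was also lower in cycling stem cells in all 4 libraries, at 10.1, 8.49, 7.21 and 10.6 CPM against 15.3, 19.6, 14.9 and 23.3 CPM at rest. Its ratio of -1.01 (-1.12 to -0.56) missed the call by library 1 and passed without that library. Selplg was higher in cycling stem cells, 56.7 to 67.5 against 37.5 to 44.8 CPM, at 0.58 (0.53 to 0.62), the edge of the rule. Itga4, Itgb1 and Cd44 had ratios of 0.03, 0.12 and 0.10.

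The stem and megakaryocyte gate markers moved with cycling too. Their summed level in stem cells was 1733 to 2038 CPM at rest and 789 to 899 CPM in cycle for the 8 stem markers, all detected. It was 222 to 261 and 335 to 764 CPM for the 6 megakaryocyte markers, of which Gp6 was at 0 in both. Their part in these differences was not tested.

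Ccr9 had the largest ratio of the members between resting and cycling cells. Resting lymphoid-primed cells had 52.8, 71.7, 65.1 and 92.6 CPM and cycling ones 4.16, 4.22, 9.35 and 6.61 CPM. The groups were far apart, with a median log2 ratio of -3.50 (-3.80 to -2.68), a call. After thinning, 17.3% (12.8% to 18.5%) of resting and 2.52% (1.95% to 3.87%) of cycling lymphoid-primed cells had a Ccr9 UMI. In common lymphoid cells the resting values of 80.0, 77.6, 83.2 and 121 CPM also lay above the cycling values of 27.6, 27.4, 15.7 and 25.2 CPM.

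Gate markers were higher in the same resting cells. The 5 lymphoid-primed markers, all detected, summed to 1969 to 2205 CPM at rest and 1174 to 1284 CPM in cycle. The 5 common lymphoid markers, all detected, summed to 1002 to 1297 and 603 to 729 CPM, of which the median of Dntt, shared by both lists, was 1022 and 627 CPM. The medians of the other common lymphoid markers were 18.4 and 11.3 CPM for Il7r, 11.7 and 1.7 for Ly6d, 7.17 and 4.46 for Rag2, and 2.65 and 0.859 for Rag1. The 5 plasmacytoid markers summed to 564 to 691 and 420 to 448 CPM, with Klk1 at 0 in both and Siglech at 0 in cycling cells. Among them Cox6a2 had a median of 78.6 CPM (35.4 to 98.2) at rest and 29.4 CPM (19.2 to 34.4) in cycle. The medians were 186 and 166 CPM for Bst2 and 354 and 237 CPM for Tcf4. With every lymphoid-primed cell that held a UMI of Siglech, Klk1, Cox6a2, Il7r, Ly6d, Rag1 or Rag2 left out, a choice made after the data were seen, Ccr9 was at 61.2 CPM (33.2 to 71.8) in 885 resting cells. It was at 3.39 CPM (2.99 to 8.26) in 1490 cycling cells, a log2 ratio of -3.35. Over all lymphoid-primed cells the ratio was -3.50. Only cells with a detected UMI of these genes were left out, and the part of such cells in the gap was not tested.

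Of the 7 members tested in cycling against resting stem cells, 1 (Cxcr4) was higher and 1 (Ptger4) lower, beside 9.37% and 5.43% of all genes. In lymphoid-primed cells 1 of 7 (Cxcr4) was higher and 1 (Ccr9) lower, beside 7.76% and 4.48%.

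**Figure D3:**
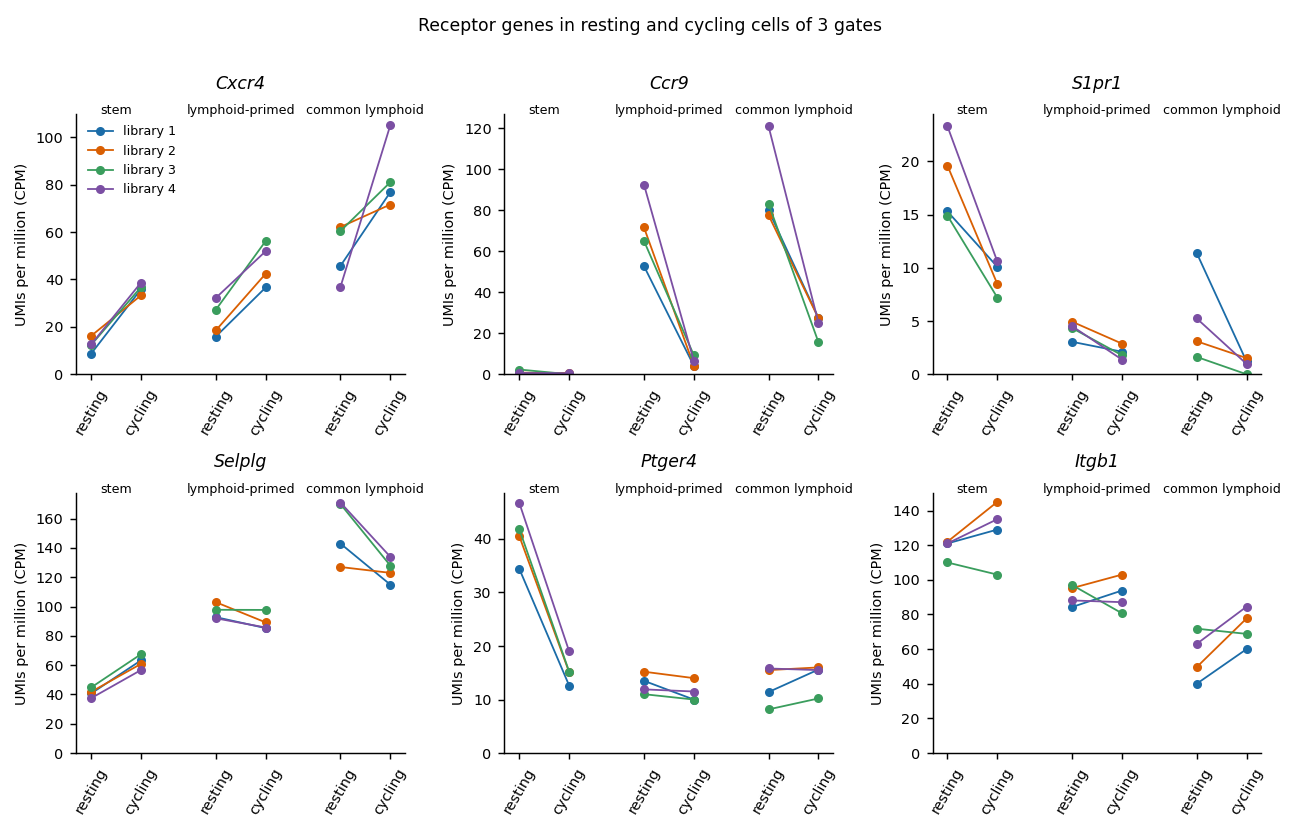
CPM (vertical axes) of 6 members in resting and cycling cells of the stem, lymphoid-primed and common lymphoid gates, 1 line per library. Cxcr4 goes up and Ptger4 down from resting to cycling stem cells in all 4 libraries, and Ccr9 goes down in lymphoid-primed and common lymphoid cells.

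Ptger4 also followed the number of stem markers detected in a cell. Among resting cells outside the lineage gates and without Dntt, its median over libraries was 16.7 CPM with 2 stem markers, 20.3 with 3, 25 with 4, 33.1 with 5, 44.4 with 6 and 61.1 with 7 or more (53.4 to 80.6, 335 cells). Cycling cells went only from 13.4 CPM with 2 to 24.3 with 7 or more (13.3 to 28.8, 59 cells). S1pr1 in resting cells was 12.4, 12.1, 13.6, 15.9, 21.0 and 21.7 CPM over the same classes, and Selplg went down from 67.0 to 38.5 CPM. Cxcr4 in resting cells was 15.9 CPM with 2 markers and 10.5 (2.43 to 11.8) with 7 or more. These are descriptions over shared libraries. Over both states together, median depth was 8695 UMIs with 2 markers and 9016 with 7 or more.

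**Figure D4:**
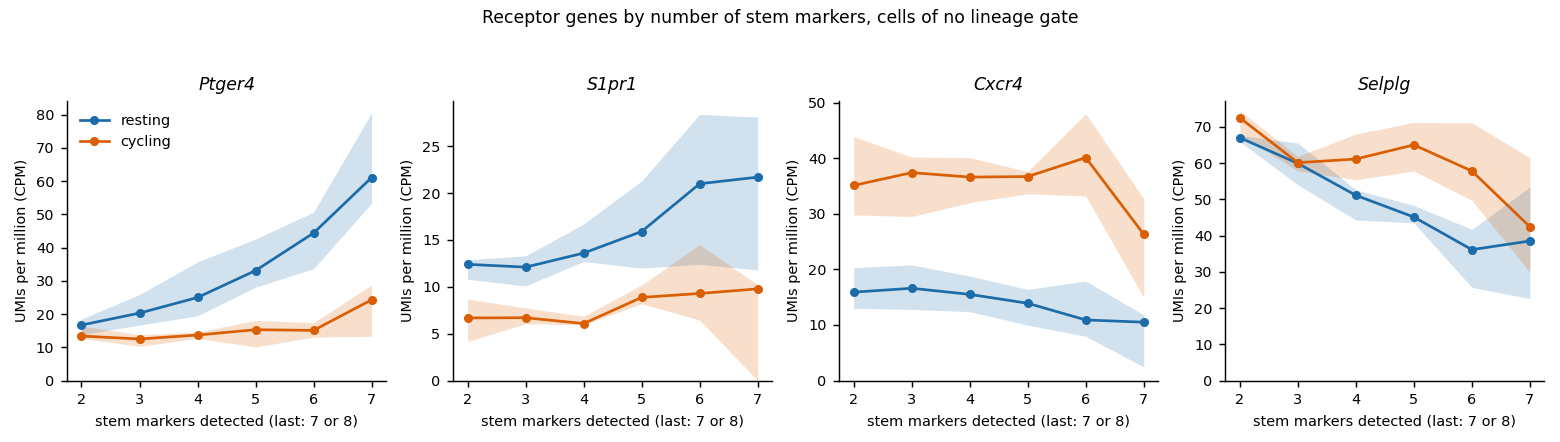
CPM (vertical axes) of Ptger4, S1pr1, Cxcr4 and Selplg by the number of stem markers detected (horizontal axes), with resting and cycling cells drawn apart. Lines are medians and bands the range over 4 libraries, and the resting Ptger4 line goes from 16.7 to 61.1 CPM.

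Stem cells with a UMI of Vwf, a gene of platelet-biased stem cells, made up 1524 of the 4729. They had 34.3 to 42.4 CPM of Selplg against 49.5 to 57.6 CPM in the other 3205, and 43.8 to 58.2 against 61.3 to 71.6 CPM of Cd44. Neither pair overlapped. Ptger4 had 33.6, 36.1, 45.4 and 37.9 CPM with Vwf and 21.4, 24.1, 25 and 36.8 CPM without, higher in each library. Itgb1, at 122 to 172 and 108 to 125 CPM, and S1pr1, at 12.9 to 19.9 and 11.5 to 17.4 CPM, were also higher with Vwf in each of the 4 libraries, though their ranges overlapped. Itga4, at 103 to 145 and 124 to 164 CPM, was lower with Vwf in each library, also with overlapping ranges. Resting cells were 62.9% and 57.6% of the 2 groups, and median depth was 9510 and 8179 UMIs.

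The libraries differed by member. Library 2 had the highest Itga4 value in 11 of the 11 gates of 393 cells or more, a median of 0.44 on the log2 scale above the other libraries, and the highest Itgb1 value in 10 of 11 (0.25). Cxcr4, whose gene spans 4.09 kb, had its highest value in library 3 or 4 in 9 of 11 gates. Ccr9, the longest at 106 kb, was highest in library 3 in 6 of 11 gates (median 0.47), with library 2 at -0.30. Several of these gates held few Ccr9 UMIs, among them 7 in monocyte, 16 in erythroid, 19 in megakaryocyte and 20 in pro-B and pre-B cells. Cd44, at 90.5 kb, was highest in library 2 in 7 of 11 gates (0.15). Over all genes in stem cells, library 2 stood above the others by a median of 0.01 for genes under 10 kb, 0.15 from 10 to 50 kb, 0.26 from 50 to 100 kb and 0.28 from 100 kb on. Itga4 spans 77.7 kb and Itgb1 47.5 kb. The part of gene length in the member values was not tested, and genotype and library cannot be told apart here.

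**Figure D5:**
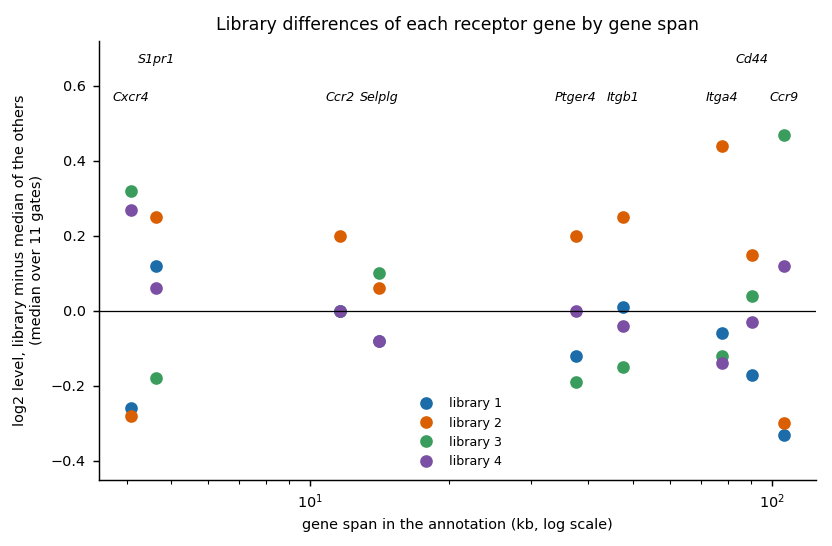
Median log2 difference between 1 library and the median of the others, over 11 gates (vertical axis), for each of the 9 members. Members are placed by the length of the gene in the annotation (horizontal axis, kb, log scale), with 1 point per library. The library 2 point of Itga4 lies at 0.44 and that of Itgb1 at 0.25.

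Related genes from fixed lists were counted by the same rule. Of 14 other integrin chains, 9 were tested in lymphoid-primed against stem cells: 4 were higher, among them Itgal (log2 ratio 2.73), the α chain of LFA-1, and Itgb5 (1.88), and 3 lower, among them Itgb3 (-2.80) and Itga6 (-1.52), a laminin receptor chain. Their median was -0.41, beside -0.06 over all genes tested, of which 3.16% were higher and 9.17% lower here and for the next lists. Of 12 genes of the selectin list, 10 were tested, 2 were higher, among them Fut7 (1.10), a fucosyltransferase of selectin ligands, and 3 lower, among them Gcnt1 (-1.02) and Tpst2 (-0.80), which also act on selectin ligands, with a median of -0.20. Of 11 sphingosine 1-phosphate genes 7 were tested and 1 was higher, Cd69 (2.39), whose product binds S1PR1 protein and takes it from the cell surface. Of 11 prostaglandin genes 4 were tested and 1 was lower, Ptgs1 (-3.23), a cyclooxygenase. Of 15 G protein and Rac genes, all tested, Rgs2 (1.06) and Rac2 (0.65) were higher and Rgs1 (-1.81) lower.

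In common lymphoid against lymphoid-primed cells, where 2.15% of all genes were higher and 2.32% lower, 1 of 2 other chemokine receptors tested was higher, Ccr7 (1.35), which guides cells to lymph nodes and thymus. Fut7 was lower at this step (-0.67). Klf2, a transcription factor known to drive S1pr1, was higher (1.41), while S1pr1 itself was at 0.747 to 4.73 CPM, under the gene filter. Ptger2, the other cAMP-raising prostaglandin E2 receptor, was higher (1.28) and Ptger4 had a ratio of 0.37 (-0.12 to 0.56). In monocyte against early granulocyte cells, where 1.71% of all genes were higher and 3.58% lower, Cx3cr1 (2.19) was higher, as was Itga1 (3.75). Vcam1, the ligand of α4β1, was higher in early granulocyte than stem cells (3.05) and lower again in monocyte cells (-2.84).

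Genes most like each member over the 64 combinations of gate and library, by Pearson's r of log2(CPM + 1), were taken from 8411 genes and are a description, since the points share libraries and depth. For Cxcr4 they were Psph (0.75), Ccdc125 (0.73) and Ctps2 (0.72), for Ccr9 Gm34680 (0.74), Kmo (0.71) and AA467197 (0.71), and for Ccr2 Klrk1 (0.84) and Anxa2 (0.82). For S1pr1 they were Gm15675 (0.79), Cd55 (0.76) and Tmod3 (0.74), and for Selplg St8sia4 (0.81), Tyrobp (0.80) and Tlr12 (0.79). For Itga4 they were Fryl (0.73), Add1 (0.70) and Ankrd12 (0.69), for Itgb1 Tab2 (0.84), Efhd2 (0.82) and Rab8b (0.81), for Cd44 Gm34680 (0.71), Ifnar2 (0.69) and Slc29a3 (0.68), and for Ptger4 Eid1 (0.77), Map7d1 (0.75) and Dtx3l (0.75).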

How the data were processed

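The authors deposited 1 aggregated matrix of whole-number UMI counts per gene and barcode, the work of Cell Ranger 6.1.2, per the file headers. The submitters' processing notes name mm10. The annotation and any evening of depth between libraries are not given in the sources used here. Barcodes under 500 genes or over 10% mitochondrial UMIs (3029) were left out. Scrublet in Scanpy 1.11.5 marked 0 cells in each of 4 libraries, so it did not work and doublets were not removed. Gates needed a set number of detected markers (89 marker genes in all), and 321 cells past more than 1 lineage gate were left out, as was a neutrophil precursor gate of 14 cells. UMIs were summed per library and gate, scaled to CPM with exact Poisson 95% intervals (SciPy 1.17.1), and compared as log2 ratios of CPM + 1 within a library. That scale understates ratios of low genes. The script was checked on simulated counts. The planned edgeR test of mutant against WT was not run, since no library could be tied to a sample.

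Named genes were all 9 members, the 2 highest and 2 lowest called genes of each related list and contrast, and the 3 genes most like each member, and a part of these is printed. Some single genes are not reported here. Vwf was chosen after its values were seen. Members, lists and gates were chosen with earlier results of these data known. Alternatives were 1 more marker per gate, Leiden classes (leidenalg 0.10.2), other pseudocounts and filters, doublet scores, resting cells only, the scale and each library left out.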

Additional observations from a re-analysis of the deposited data

How the results depend on the processing

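No log2 ratio of a called member changed direction under any alternative run. The numbers of members called did move. With 1 more marker per gate, lymphoid-primed against stem cells had 4 higher (Cxcr4, Ccr9, Selplg and Cd44), common lymphoid against lymphoid-primed 1, cycling against resting lymphoid-primed 0, and erythroid and megakaryocyte against stem 2 lower each (S1pr1 and Ptger4). With Leiden classes, common lymphoid against lymphoid-primed had 1 higher (Ccr9), early granulocyte against stem 3 (Cxcr4, Ccr2 and Selplg), erythroid against stem 1 (Itga4) and megakaryocyte against stem 1 higher (Cxcr4) and 2 lower. There the ratio of Ccr9 in lymphoid-primed against stem cells was 2.02, and those of Cxcr4 and Itga4 in common lymphoid against lymphoid-primed cells 0.07 and 0.33, none of them called, and no cluster was named monocyte. At 20 CPM, lymphoid-primed against stem cells had 1 higher and 1 lower, early granulocyte against stem 0 and 1, and megakaryocyte and erythroid against stem 0 lower each, because fewer genes were tested. With no filter, monocyte against early granulocyte cells had 1 lower (S1pr1). In resting cells only, common lymphoid against lymphoid-primed, erythroid against stem and monocyte against early granulocyte cells had 1 higher each (Itga4, Itga4 and Ccr2), and early granulocyte against stem 1 lower. Without the highest 8% of doublet scores, and on the scale without the 50 most abundant genes, cycling stem cells had 2 lower (S1pr1 and Ptger4), and on that scale cycling lymphoid-primed cells 0 higher (Cxcr4 at 1.00). The causes were not tested. Over the fits that leave out 1 library, erythroid against stem had 0 to 1 higher (1 without library 1), cycling stem cells 1 to 2 lower (2 without library 1), early granulocyte against stem 0 to 1 higher (0 without library 2) and megakaryocyte against stem 1 to 2 lower (2 without library 2). Of the 17 calls, 6 were lost at 20 CPM, 2 with 1 more marker, 1 each without high doublet scores, on the other scale and without library 2, 4 of 13 in resting cells only (Cxcr4 in common lymphoid, Ccr2 and S1pr1 in early granulocyte and Selplg in monocyte cells), 3 of 11 with Leiden classes, and 0 without libraries 1, 3 or 4, with a pseudocount of 5 CPM or with the stricter cell filter. Depth limits the gates of few cells: 57 plasmacytoid dendritic and 111 mature B cells give wide intervals. Resting cells were also few in some gates: 209 common lymphoid cells, 116 early granulocyte cells and 2.12% of the 659 monocyte cells. The resting early granulocyte cells held 10 UMIs of Ccr2 and 11 of S1pr1. The part of these small counts in the calls lost in resting cells was not tested. DESeq2 and edgeR were not run. No paired analysis was possible between mutant and WT because no barcode suffix is tied to a sample, and ratios between gates were taken within each library.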

Other observations

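Among the other chemokine receptors, Ccr3 was highest in macrophage-gated cells (median 82.4 CPM), Ccr6 (39.4 CPM) and Ccr7 (53.2 CPM) in mature B cells, Ccr10 in plasma cells (17.5 CPM) and Cxcr2 in basophil and mast cells (8.68 CPM). Ccr4 and Ccr8 had a median of 0 in every gate. In stem cells Ccrl2, an atypical chemoattractant receptor, had 10.5 CPM, above its 6.4 in multipotent, 5.86 in lymphoid-primed and 3.92 in early granulocyte cells, and it was called lower in early granulocyte (log2 ratio -1.27) and erythroid cells (-1.67) than in stem cells.

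In erythroid against stem cells Sphk1, a kinase that makes sphingosine 1-phosphate, had a median of 61.2 CPM against 0. S1pr1 had 7.44 CPM (5.36 to 15.1) against 13.2 (12 to 18.6), with overlap. Its log2 ratio of -0.66 (-1.63 to 0.13) was not called. Selp, which encodes the P-selectin that binds PSGL-1, was called lower than in stem cells in lymphoid-primed (log2 ratio -2.16), early granulocyte (-1.40), megakaryocyte (-0.99) and erythroid cells (-2.86), and lower in cycling than in resting stem cells (-1.05).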
